A study of Rattus norvegicus with 23 samples.

Results

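The 12 control arrays of this series, out of 23 arrays in all, were used to describe what the ligament of a control molar expresses and how far that profile varies between samples. The arrays were chosen by their label as control, and no control group was set against another. The tissue was periodontal ligament that had been scraped from the roots of extracted first molars of the lower jaw of male Wistar rats, a common outbred laboratory strain. The rats were 4 weeks old at the start. Of the control animals, 3 were sampled at 31 days of age (C1, C2 and C3) and 3 at 43 days (C4, C5 and C6), and each gave a left and a right molar, so that 12 arrays came from 6 animals. The labels name no procedure for the control animals. The numeral shared by sample titles was read as the animal. The other 11 arrays, from 6 animals labelled experimental in a study of unopposed molars, which have no tooth to bite against, are used here solely as arrays that the ranking did not draw on.

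The periodontal ligament is a band of dense connective tissue between the cementum of the root and the bone of the socket. Its fibroblasts make and remodel type I and type III collagen bundles at a high rate, and periostin is among its best known products, needed for the ligament to withstand chewing forces. Cells at its borders lay down cementum and bone and resorb bone. Towards the gum, the junctional epithelium seals the tissue to the tooth and passes into the oral epithelium, and small clusters of epithelial cells left from root formation persist inside the ligament. A scraped ligament can therefore carry gum epithelium, bone and marrow cells, blood, and dentin or pulp cells from the root.

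Signal here means the log2 value of a gene's probe set after quantile normalization of the 12 arrays, which gives every array the same set of values. For each of 18166 genes, the probe set with the highest mean was kept, and genes were ranked by their mean over the arrays. Probe sets bind their targets with unequal strength, so a rank orders signals and is not a measure of RNA abundance. The SD over the 12 arrays, in log2 units, is the spread. The left and right molar of an animal are not independent, so n is given as arrays and animals. As deposited, the arrays fell into a higher set with medians from 6.50 to 6.64 (C1, C3 and C4) and a lower set from 6.02 to 6.17 (C2, C5 and C6), and both molars of an animal always lay in the same set. The number of arrays limits the precision.

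A pair of arrays stood apart from the other 10, and both are left molars. C2 left had the lowest signal of the 12 arrays in 23 of 25 measured oral epithelium genes and the highest in 15 of 18 granulocyte, 13 of 13 B and plasma cell, and 15 of 16 endothelial genes. C5 left had the highest signal in 22 of the 25 oral epithelium genes and the lowest in 18 of 23 ligament fibroblast and 20 of 23 collagen processing genes. Among the 13624 genes kept after removing the 25% with the lowest mean signals (below 5.80), C2 left was highest in 22.8% and lowest in 15.2%, and C5 left in 22.8% and 16.2%. In a bulk sample, fewer cells of a type and less RNA per cell cannot be told apart. Values with and without this pair are given where they differ.

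The 4 genes used to mark the ligament were all among the 25 highest ranks. Epithelial and blood genes stood as high, with Fdcsp 5th, Hbb-b1 14th, Odam 15th and Krt14 22nd, so rank alone does not name the tissue. Col1a1 (probe set 17650326), which encodes the main chain of type I collagen, ranked 4th among all genes. Its signal was 13.74 ± 0.17 (SD, 12 arrays, 6 animals), with 13.67 and 13.78 in C1 (left, then right, here and below), 13.61 and 13.78 in C2, 13.84 and 13.89 in C3, 13.98 and 13.92 in C4, 13.36 and 13.61 in C5, and 13.72 and 13.68 in C6. Every array lay above 13.3, with C4 left at the top and C5 left at the bottom. Col1a2 (17781395), the partner chain in the same triple helix, ranked 9th at 13.48 ± 0.24, from 12.90 in C5 left to 13.81 in C4 left with a median of 13.48. Col3a1 (17858944), the type III chain, ranked 23rd at 12.88 ± 0.28, from 12.18 in C5 left to 13.27 in C2 right with a median of 12.84. Postn (17738503), which encodes periostin, ranked 21st at 12.98 ± 0.35, with 13.06 and 13.16 in C1, 12.60 and 13.36 in C2, 13.31 and 13.05 in C3, 13.46 and 13.17 in C4, 12.21 and 12.84 in C5, and 12.81 and 12.77 in C6. The array at the bottom for all 4 markers was C5 left. Without C2 left and C5 left the SD of Postn was 0.23 and that of Col1a1 0.11.

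The highest signals mixed housekeeping, matrix, epithelial and blood genes. The first places went to Rpl41, a ribosomal protein (13.86 ± 0.09), and Rpph1, the RNA of ribonuclease P (13.85 ± 0.21), whose means differ by less than either SD. The mitochondrial genes COX3 and COX1 ranked 3rd and 6th at 13.83 and 13.65, and were left out of the named list with COX2 and Ubcl1 because the RefSeq table used here does not hold these symbols. Besides the 3 collagen chains and Postn, the 25 named genes held the matrix genes Sparc (13.55 ± 0.21), a collagen-binding protein of mineralizing tissue, and Bgn (13.00 ± 0.34), the small proteoglycan biglycan. They also held Vim and Lgals1, both abundant in mesenchymal cells, at 13.09 and 12.79. Translation was represented by Eef1a1 (13.58), Rps29 (13.26), Tpt1 (12.77) and Rps2 (12.75), with the pseudogene-named Rps4x-ps9 at 13.24. A probe set of a ribosomal pseudogene can share sequence with the parent gene, so that value is uncertain.

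Fdcsp and Odam, genes of the tooth seal, were among the top 15. Of the 12 measured junctional epithelium genes, a list that holds Odam and not Fdcsp, 4 were among the 500 highest signals. Fdcsp (17693722), a small secreted protein of junctional epithelium, ranked 5th at 13.72 ± 0.33. It measured 13.89 and 13.89 in C1, 12.67 and 13.79 in C2, 13.78 and 13.75 in C3, 13.78 and 13.89 in C4, 13.81 and 13.78 in C5, and 13.79 and 13.79 in C6. Odam (17693727), which encodes an ameloblast protein also found at the junctional attachment, ranked 15th at 13.13 ± 0.58, with 11.31 in C2 left and 13.17 to 13.43 in the other 11 arrays. For both genes C2 left was far below the rest, which lay close together. The spread without C2 left and C5 left was 0.05 for Fdcsp and 0.10 for Odam. In RefSeq gene order these are neighbours, with 0 protein-coding genes between them. Krt14, the basal keratin of stratified epithelium, ranked 22nd at 12.91 ± 0.66, from 10.99 in C2 left to 13.65 in C5 left with a median of 13.06, and its spread without that pair was 0.20. Haemoglobin genes were as high as matrix genes, with Hbb-b1 at 13.14 ± 0.44 and Hba-a3 at 13.02 ± 0.42.

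**Figure D1:**
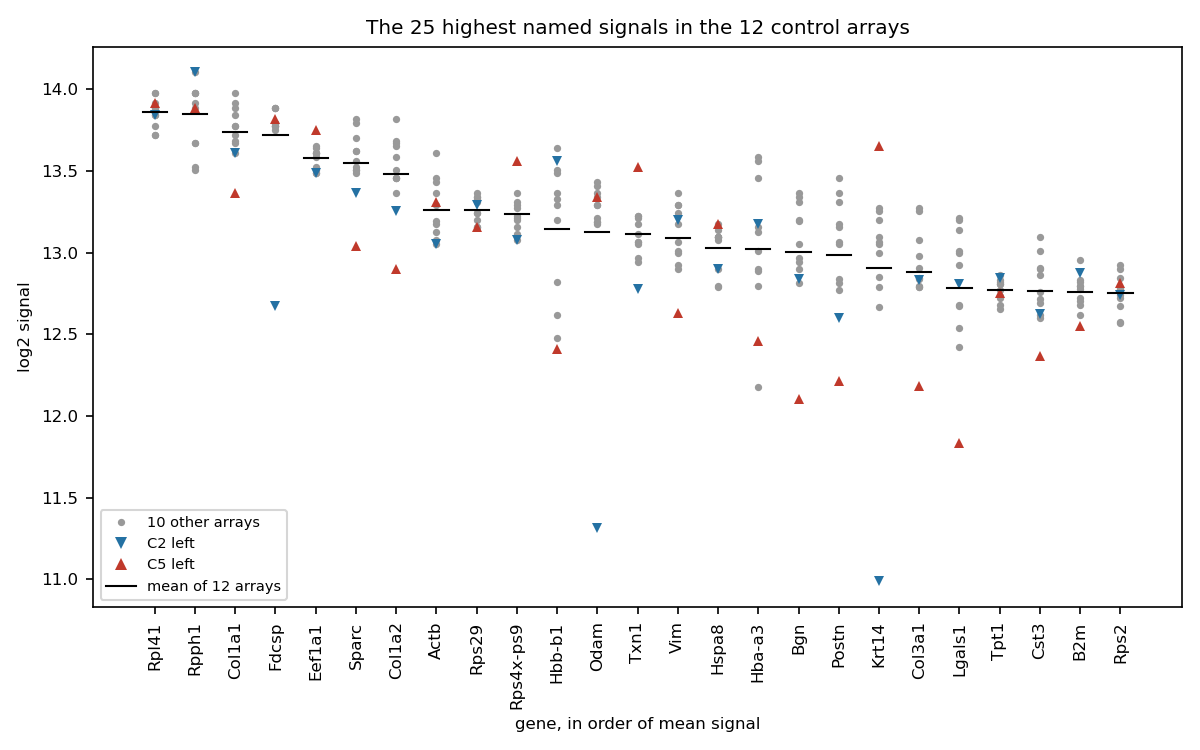
Log2 signal (vertical axis) of the 25 named genes with the highest mean signal (horizontal axis, in order of the mean) in the 12 control arrays. Grey points are 10 arrays, triangles are C2 left (down) and C5 left (up), and bars are means. C2 left is far below the other arrays for Fdcsp, Odam and Krt14, and C5 left is the lowest array for Col1a1, Col1a2, Col3a1, Postn and Bgn.

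Ligament and secretion genes sat high as groups. The 23 measured ligament fibroblast genes had a median signal of 11.89, beside 7.05 for all 18166 genes, and 14 of them were among the 500 highest signals, a place held by 2.8% of all genes. Small leucine-rich proteoglycans, which bind collagen and set fibril width, had a median of 10.47 over 13 measured genes, led by Bgn, Dcn (12.58), Lum (12.46) and Ogn (12.43). The 16 matricellular genes, secreted proteins that tune how cells meet matrix, had a median of 10.21, with Thbs4 at 12.26 and Sparcl1 at 11.99. The 9 fibrillar collagens had a median of 10.03 and ranged from 6.84 for Col2a1, the cartilage chain, to Col1a1. Col12a1, a collagen that coats type I fibrils in tissues under tension, reached 12.29. Of the 23 secretory pathway genes, which fold and export proteins, 23 lay in the upper 25% of signals (8.28 or above), with Pdia3 at 12.37, Calr at 12.12 and Hspa5 at 11.68. Collagen processing genes had a median of 9.82 over 23 genes, headed by the collagen chaperone Serpinh1 (12.01), P4hb (11.69), Ppib (11.44) and the lysyl hydroxylase Plod2 (11.33).

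Hard tissue and resorption genes were also well represented. The 22 osteoblast and cementoblast genes had a median of 9.88, led by Bglap, which encodes osteocalcin (11.89), Ibsp, bone sialoprotein (11.46), and Alpl, alkaline phosphatase (11.39). Among the 9 osteoclast genes the median was 8.31, with the bone collagen protease Ctsk at 12.27 and Mmp9 at 11.32. In the axis that controls osteoclast formation, 8 genes were measured with a median of 7.84, and Tnfrsf11b, the decoy receptor osteoprotegerin, was at 8.12 ± 0.49. The proteases Ctsb (12.48) and Mmp2 (12.43) and the inhibitors Cst3 (12.76), Serpinf1 (12.34) and Timp2 (11.95) all lay among the 100 highest signals. Dspp, which encodes dentin sialophosphoprotein and is made chiefly by the odontoblasts that line dentin, ranked 99th at 11.81 ± 0.89. Its signal was 12.02 and 12.36 in C1, 12.47 and 11.05 in C2, 10.35 and 13.23 in C3, 11.15 and 11.47 in C4, 10.56 and 12.51 in C5, and 12.15 and 12.45 in C6. The lowest and the highest arrays for Dspp were the left and right molar of the same animal, C3.

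Growth factor and signalling lists held several strong signals. The 28 measured genes of the insulin-like, fibroblast and platelet-derived growth factor systems had a median of 9.44, and their highest were the binding proteins Igfbp7 (12.27) and Igfbp5 (11.95) and the receptors Fgfr1 (11.33) and Fgfr2 (11.10). The 33 Wnt genes had a median of 8.0. The highest was Ctnnb1 (11.70), the intracellular mediator beta-catenin, followed by the secreted antagonists Sfrp2 (10.95), Wif1 (10.73) and Sfrp4 (10.39). In the transforming growth factor and bone morphogenetic protein list, 30 genes had a median of 8.66, with Tgfb1 at 10.83, Bmpr2 at 10.42, Tgfb3 at 10.25 and Bmp7 at 10.20. Tendon regulators had a median of 7.36 over 10 genes, and 7 of the 10 lay above the median of all genes. Egr1 was the highest at 10.65, and Tnmd, the tendon membrane protein tenomodulin, the lowest at 6.11 ± 0.76. Mechanosensing genes, which link cells to matrix and read force, had a median of 9.31 over 19 genes, led by the integrin chain Itgb1 (10.82) and the channel Piezo1 (9.90).

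Other cell types left signals of different sizes. Oral epithelium genes had a median of 10.16 over 25 measured genes, with Krt13 at 12.24, Sprr1a at 12.16 and Perp at 12.08. Their mean by array ran from 7.82 in C2 left and 9.50 in C4 left, the next lowest, to 10.72 in C6 left and 11.30 in C5 left. Junctional epithelium genes had a median of 9.47 over 12 genes, including the hemidesmosome integrins Itgb4 (11.54) and Itga6 (11.22). Erythroid genes had a median of 9.36 over 11 genes, and array means from 8.51 in C4 left to 10.52 in C2 left. Endothelial genes had a median of 8.70 over 16 genes, with the vessel surface protein Emcn at 10.24. Macrophage genes had a median of 7.47 over 20 genes and included Lyz2 at 11.70, while granulocyte genes had a median of 7.59 over 18 genes and an array mean of 9.38 in C2 left against 8.07 in C3 right, the next highest. The antigen presentation gene Cd74 reached 12.04.

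Skeletal muscle, neuronal and salivary gland genes gave low signals. The 18 skeletal muscle genes had a median of 6.03, the 11 neuronal genes 5.60 and the 5 salivary gland genes 5.35. Schwann cell and glial genes were higher, with a median of 7.34 over 13 measured genes and Pmp22 at 10.26. As a gauge of the floor, 54 measured genes of liver, brain, heart, testis, pancreas and kidney had a median of 5.62 and a 90th percentile of 6.42. Of these, 32 fell below the 5.80 filter. A signal above 6.42 was seen for 11282 genes, which is 62.1% of all genes. The highest of the 54 was Nppb, a natriuretic peptide gene of the heart, at 8.17 ± 0.80, from 6.70 in C2 left to 9.28 in C3 left. Genes of microRNAs had a median of 4.95 over 363 genes, of which 52 lay above 6.42 and Mir761 was highest at 9.57.

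**Figure D2:**
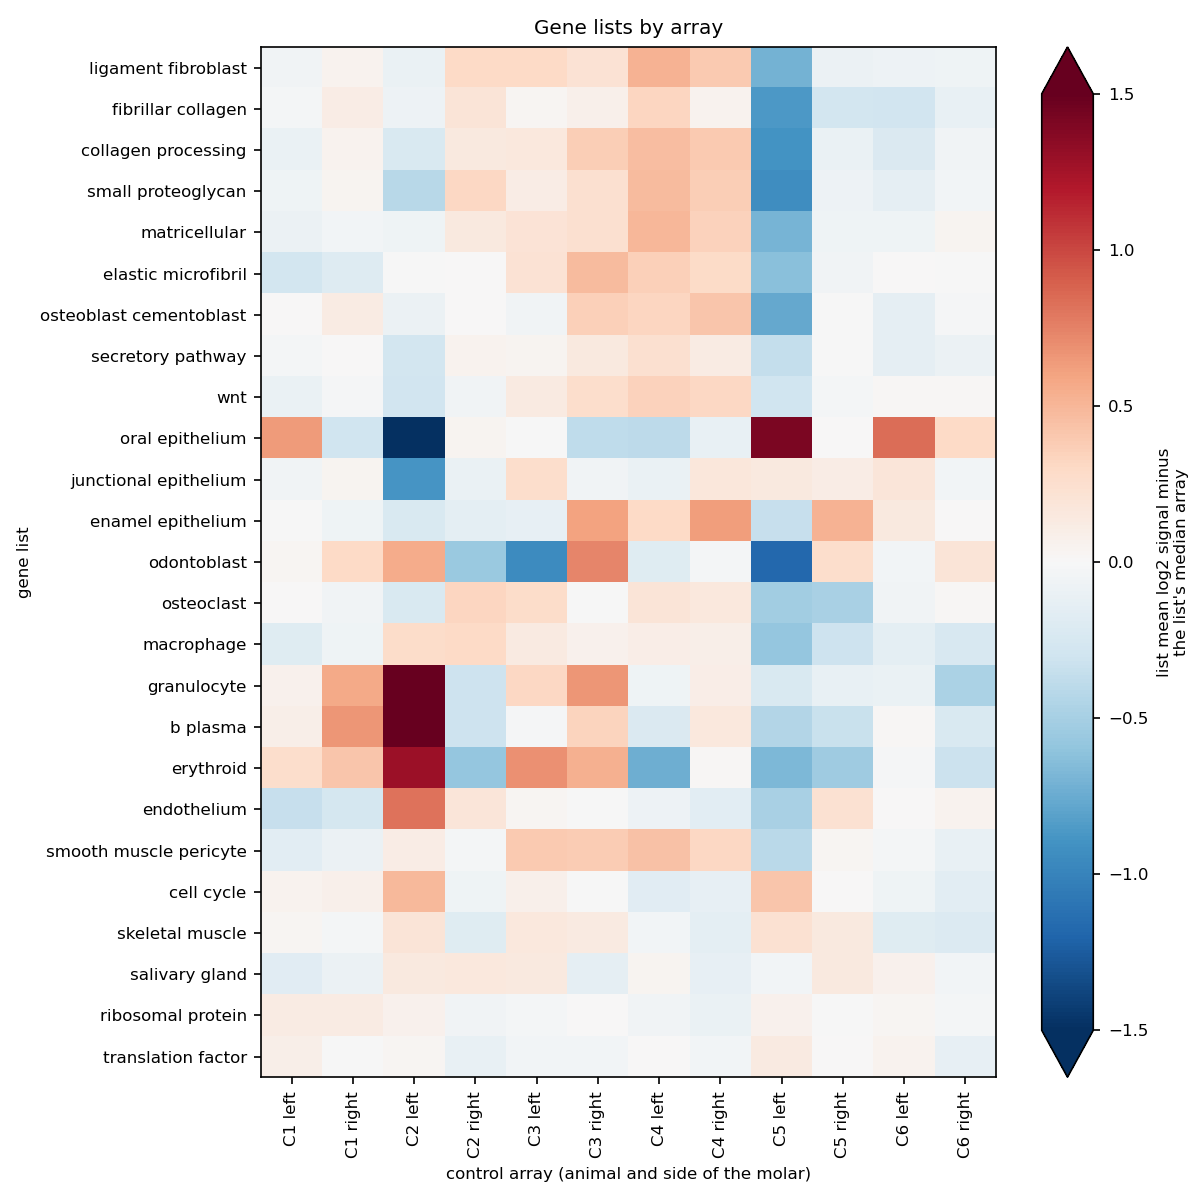
Mean log2 signal of 25 gene lists (rows) in each control array (columns), shown as the difference from the list's median array. Blue is below and red above that median, and the colour scale ends at 1.5 log2 units. C2 left is low in oral and junctional epithelium and high in granulocyte, B and plasma, erythroid and endothelial genes, while C5 left is high in oral epithelium and low in the ligament, matrix and bone lists.

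Most genes varied little between arrays. Over the 13624 kept genes the median SD was 0.21, and 25% of genes lay below 0.16 and 25% above 0.29. Split by source, the median SD between the molars of an animal was 0.17, and the component between animals was 0.10. An SD above 1 was reached by 111 genes. The 4542 genes in the upper 25% of signals, which are part of the kept genes, had a median SD of 0.20. The relation of spread to signal was not tested.

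**Figure D3:**
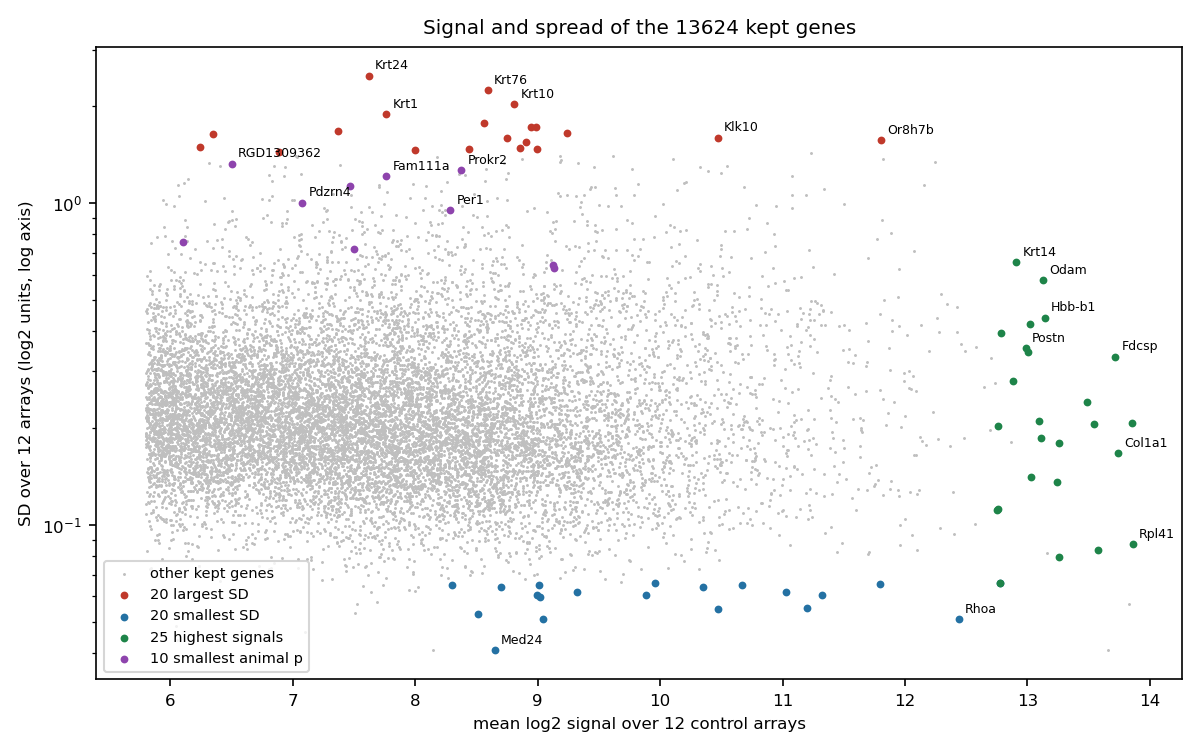
SD over the 12 control arrays (vertical axis, log2 units on a log scale) against mean log2 signal (horizontal axis) for the 13624 kept genes. Coloured points mark the 25 highest signals, the 20 largest and 20 smallest SDs and the 10 genes of smallest animal p. Keratin genes top the plot at SDs of 1.89 to 2.49, and Rhoa lies at a signal of 12.44 with an SD of 0.05.

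The 4 genes of largest spread were keratins, the filament proteins of epithelium. Of the 100 genes of largest SD, 16 were in any of the lists, 8 of them in oral epithelium and 4 in granulocytes. The lists held 814 of all 18166 genes, with 25 measured in oral epithelium and 18 in granulocytes. Krt24 (17660939), a keratin of differentiating epithelium, had the largest SD, 2.49, and measured 10.12 and 5.73 in C1, 7.04 and 5.89 in C2, 5.78 and 8.86 in C3, 5.93 and 6.13 in C4, 12.25 and 5.0 in C5, and 11.68 and 7.05 in C6. Krt76 (17841417), a keratin of the hard palate and gum, followed at 2.24. Its values were 11.06 and 7.48 in C1, 7.09 and 7.86 in C2, 7.10 and 7.38 in C3, 7.33 and 7.48 in C4, 13.08 and 7.35 in C5, and 12.53 and 7.38 in C6. Krt76 was thus high in 3 left molars, C1, C5 and C6, and lay between 7.09 and 7.86 in the other 9 arrays. Krt10 and Krt1, the partner keratins of cornified epithelium, had SDs of 2.03 and 1.89 and were highest in the same 3 arrays, with Krt10 at 11.13, 12.87 and 12.17 there and at most 8.39 elsewhere. Krt1 measured 10.75, 11.71 and 9.95 in C1, C5 and C6 left and no more than 7.13 elsewhere. The right molars of those animals had 7.43, 7.77 and 8.28 for Krt10. The left molars of C2, C3 and C4 did not share the pattern, with Krt10 at 7.03, 7.80 and 7.61.

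Tgm3, which crosslinks proteins of the cornified envelope, came next and had an SD of 1.78, from 5.80 in C2 left to 11.60 in C5 left. Serpinb12 (1.72), Kprp (1.68), Lgals7 (1.59), Calml5 (1.56), Rptn (1.48), Alox12b (1.47) and Ly6d (1.44) are all expressed in stratified or cornifying epithelium. Klk10, a secreted serine protease of epithelium, had an SD of 1.60, with 6.51 in C2 left, 8.36 in C1 right, 12.40 in C5 left and 9.86 to 11.51 in the other 9 arrays. Defb4, an antimicrobial peptide of epithelium, was lowest in C2 left, at 5.68, and highest in C5 left, with a median of 9.48 and an SD of 1.66. Or8h7b, named as an olfactory receptor, ranked 100th by signal at 11.80 ± 1.57, with 7.28 in C2 left and 11.29 to 13.41 in the other 11 arrays, and its SD without C2 left and C5 left was 0.66. By symbol, 9 of the 100 genes of largest SD were keratins, 6 Serpinb, 4 kallikrein, 3 Sprr and 3 Tmprss11 genes. Among all 13624 kept genes these families had 31, 12, 14, 4 and 3 members.

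**Figure D4:**
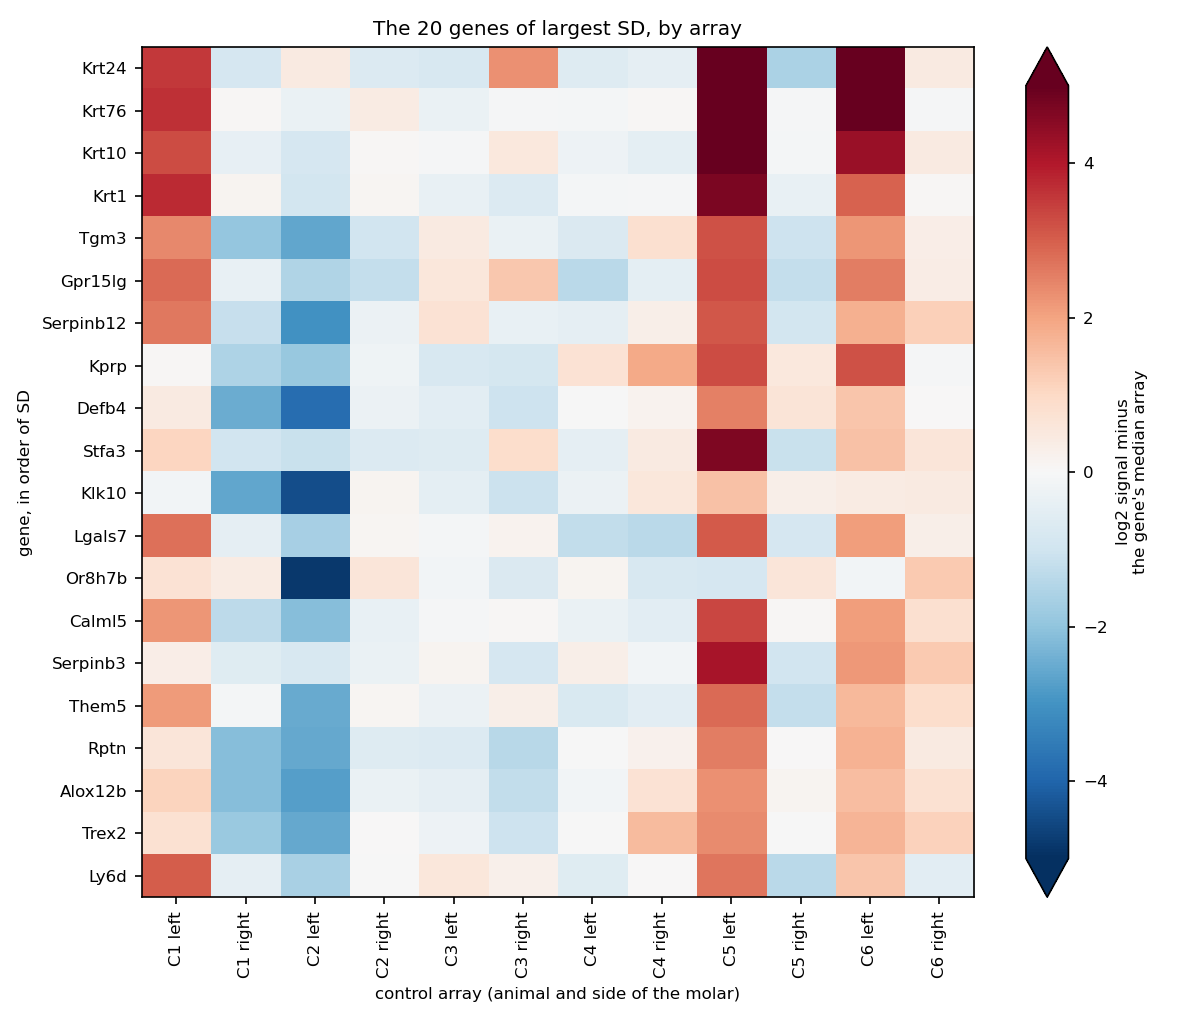
Log2 signal of the 20 genes of largest SD (rows) in each control array (columns), as the difference from the gene's median array. Blue is below and red above the median, and the colour scale ends at 5 log2 units. C5 left is the highest array for 18 of the 20 genes, and the 4 keratins at the top are high in C1, C5 and C6 left.

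This spread lay mostly between the molars of an animal and much of it in C2 left and C5 left. Over the 100 genes of largest SD, the median SD was 1.24. Taken separately, the median SD between the molars of an animal was 1.21 and the median component between animals 0.20. That component was 0 in 41 of the 100 genes, beside 3924 of the 13624 kept genes. C5 left was the highest array in 78 of the 100 genes and C2 left the lowest in 76, and both held in 68. Without C2 left and C5 left the same 100 genes had a median SD of 0.83, and 68 of them remained among the 100 of largest SD. Epithelium genes varied among the other 10 arrays too, with a median SD of 0.43 for the oral epithelium list, which was 0.88 over all 12, beside 0.18 for all kept genes over those 10 arrays. Krt76 without the pair had an SD of 1.88, since C1 left and C6 left stayed. Mmp12, the macrophage elastase, lost its spread, from 1.22 to 0.27, because it measured 7.30 in C2 left and 11.03 to 11.89 in the others. At the border of the list, Fcnb was the last gene inside at 1.0342 and Defa11 the first outside at 1.0341.

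Markers of marrow, blood and tooth-forming cells varied too, some of them among the 100 genes of largest SD. Ngp, a neutrophil granule protein, measured 12.39 in C2 left and 8.32 to 10.72 in the other 11 arrays. Defa5, a defensin gene held in the granulocyte list, was at 11.98 in C2 left, followed by 10.01 in C1 right. Fcnb and Mpo, also of the granulocyte lineage, were among the 100 as well. Mmp20, the enamel matrix protease, ran from 7.42 in C5 left to 11.35 in C3 right with an SD of 1.06, and in animal C3 it was 7.77 on the left. Phex, a membrane protein of odontoblasts and osteocytes, was just below the 100 at an SD of 0.99 and had the same extremes, with 8.12 in C5 left and 11.62 in C3 right. Of the 8 measured genes in the enamel epithelium list, which holds Mmp20, 5 lay above the median of all genes. The highest was Odam, at 13.13. The lowest was Amelx, which encodes the enamel protein amelogenin, at a mean of 4.19, and the filter on low signals removed it. Mmp20 alone therefore does not show that enamel-forming cells were present. Outside the 100, Cd79b, a part of the B cell receptor, was 10.63 in C2 left and 7.73 to 9.51 elsewhere. The erythroid gene Slc4a1, the red cell anion exchanger, was 12.24 in C2 left, though 11.96 in C3 left and 11.83 in C3 right were close to it. The part of these cells in the spread was not tested.

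Some variable genes lay near each other in the genome. In RefSeq gene order, 37 of the 100 genes of largest SD had another of the 100 within 5 protein-coding genes, among them the Klk5, Klk9, Klk10 and Klk14 genes, the Serpinb2, Serpinb3, Serpinb5, Serpinb11 and Serpinb12 genes, and the Flg, Rptn, Crct1 and Sprr genes of the epidermal differentiation cluster. The same count was 16 of 94 placed genes for the highest signals, including Dcn, Lum, Ogn and Aspn, and 4 of 98 for the smallest SDs. Genes of one cell type that sit in clusters are not independent, so these counts describe the lists and were not tested.

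Promoters of some of the most and least variable genes are shown for the words counted below them. The stretches shown cover the 120 bases before the RefSeq start, read 5′ to 3′ on the gene's strand from the GRCr8 build. The first set holds the 6 genes among the 20 most variable whose promoter has TATAAA, the core of the TATA box, within 40 to 16 bases before the start, with TATAAA in capitals. They are 6 of 16 matched genes of the 20. They lie at chr7:134904163-134904282 (minus strand, Krt76), chr10:84839161-84839280 (minus, Krt10), chr3:137681689-137681808 (plus, Tgm3), chr16:12896135-12896254 (minus, Gpr15lg), chr13:23795299-23795418 (minus, Serpinb3) and chr2:181743343-181743462 (plus, Rptn), and TATAAA begins 29, 29, 37, 31, 31 and 37 bases before the start.
Krt76: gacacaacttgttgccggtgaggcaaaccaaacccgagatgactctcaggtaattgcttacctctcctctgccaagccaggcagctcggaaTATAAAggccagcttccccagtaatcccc
Krt10: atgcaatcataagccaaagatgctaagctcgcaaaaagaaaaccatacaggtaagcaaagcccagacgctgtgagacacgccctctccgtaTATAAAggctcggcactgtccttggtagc
Tgm3: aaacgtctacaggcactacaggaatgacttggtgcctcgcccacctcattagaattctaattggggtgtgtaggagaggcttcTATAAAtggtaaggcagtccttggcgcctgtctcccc
Gpr15lg: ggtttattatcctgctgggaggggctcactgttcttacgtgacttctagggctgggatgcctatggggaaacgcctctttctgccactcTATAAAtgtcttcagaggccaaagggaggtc
Serpinb3: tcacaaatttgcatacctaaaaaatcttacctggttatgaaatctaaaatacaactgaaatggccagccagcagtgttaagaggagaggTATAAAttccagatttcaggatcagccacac
Rptn: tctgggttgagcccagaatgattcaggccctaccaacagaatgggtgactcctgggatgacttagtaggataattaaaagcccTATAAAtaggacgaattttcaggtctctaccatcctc
The second set holds 3 of the 20 least variable genes, chosen after their counts were seen because their promoters are rich in the CG dinucleotide, which is in capitals. Over the 17 matched genes of the 20, CG in the 300-base promoter ran from 2 for Rhoa and 4 for Ube2l3 to 46 for Chtf8. They lie at chr19:51702077-51702196 (minus, Chtf8), chr10:45878974-45879093 (plus, Llgl1) and chr15:57566024-57566143 (plus, Tpt1), with 25, 24 and 15 CG in the stretch shown.
Chtf8: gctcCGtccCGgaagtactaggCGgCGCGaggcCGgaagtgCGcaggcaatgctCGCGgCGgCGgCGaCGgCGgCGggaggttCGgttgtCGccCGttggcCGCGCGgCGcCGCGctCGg
Llgl1: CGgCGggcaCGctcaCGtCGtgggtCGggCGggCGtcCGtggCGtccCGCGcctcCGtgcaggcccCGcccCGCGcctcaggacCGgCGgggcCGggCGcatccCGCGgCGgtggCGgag
Tpt1: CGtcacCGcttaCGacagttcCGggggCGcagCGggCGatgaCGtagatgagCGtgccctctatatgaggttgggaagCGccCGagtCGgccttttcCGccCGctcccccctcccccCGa

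Letters were also counted over whole lists, as a description of these windows. The genes of smallest SD were drawn from the upper 25% of signals, so that pool is given beside them. Promoters of 300 bases, from 250 before to 50 after the start, were matched by symbol for 77 of the 100 genes of largest SD, 82 of the 100 of smallest SD and 73 of the 100 highest signals. TATAAA lying within the 40 to 16 bases before the start was found in 14 of the 77 (18.2%), in 0 of the 82 and in 5 of the 73 (6.8%), the last including the haemoglobin genes Hbb-b1 and Hba-a3. It was found in 1.6% of 11086 promoters of kept genes, in 1.5% of 3759 promoters of the upper 25% of signals and in 1.5% of all 27457 promoters of the table. TGACTCA on either strand, a site of AP-1 factors, was found in 18.2%, 0% and 9.6%, beside 3.8% of kept genes, 3.5% of the upper 25% and 4.5% of the table. GGGCGG on either strand, a GC box, was found in 26.0%, 64.6% and 57.5%, beside 57.8% of kept genes, 67.8% of the upper 25% and 34.9% of the table. The median number of CG was 5, 24 and 18, beside 19 for kept genes and 23 for the upper 25%. In GC box and CG the genes of smallest SD were thus near the pool they were drawn from. A matched word is not a bound site, and genes absent from the matched promoters were not counted.

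The steadiest genes in the upper 25% of signals had varied roles, and 10 of the 100 of smallest SD were in any of the lists. The lists held 814 of all 18166 genes, and how many of the 814 lay in the upper 25% was not counted. Med24, a subunit of the Mediator complex, had the smallest SD among the named genes, 0.04, with a mean of 8.65 and values from 8.57 in C2 left to 8.70 in C4 left. Rhoa, a small GTPase that sets actin tension, measured 12.43 and 12.48 in C1, 12.49 and 12.49 in C2, 12.37 and 12.34 in C3, 12.46 and 12.41 in C4, 12.46 and 12.49 in C5, and 12.37 and 12.45 in C6, with an SD of 0.05. For Rhoa neither C2 left nor C5 left was apart from the rest. Its relative Cdc42 had a mean of 11.80 and an SD of 0.07, with 11.97 in C5 left and 11.74 to 11.85 in the other 11. Others were Iqgap1, an effector of Cdc42 (10.47, SD 0.05), the endosomal GTPase Rab5c (11.32, 0.06), the ubiquitin carrier Ube2l3 (11.20, 0.06), the adhesion protein Ctnna1 (10.35, 0.06) and Tpt1 (12.77, 0.07), which was also among the 25 highest signals. Over the 100 genes of smallest SD, the median SD was 0.077. Ankrd50, at 0.0846, was the last inside and Strada, at 0.0847, the first outside. The 100 were drawn from the 4542 genes in the upper 25% of signals. That pool held 10 of the 11 translation factors, of which 4 were among the 100 (Tpt1, Eef1g, Eef1a1 and Eef2). It held 33 of the 43 ribosomal proteins, of which 2 were among the 100. Of genes often used as references, Actb had an SD of 0.18, B2m 0.11, Rpl13a 0.09, Ywhaz 0.20 and Tfrc 0.43. The choice of the steadiest genes rested on the scaling, since 11 of the 100 kept that place with the values as deposited and 18 with each array centred on its median.

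A term for the animal was tested in each kept gene against the difference left between its molars, with the side in the model (limma, Benjamini-Hochberg adjustment over all 13624 genes). This passed an adjusted p of 0.05 in 6 genes, which is 0.044% of those tested. An unadjusted p below 0.05 was found for 2399 genes, or 17.6%. Age and array set differ between animals and cannot be told apart from the animal. In these 6 genes the SD between the molars of an animal lay between 0.10 for Ctrb1 and 0.34 for Fam111a, and the component between animals between 0.74 for Ctrb1 and 1.36 for RGD1309362. The molars of C2 were nonetheless well apart for Fam111a (8.27 and 7.18) and RGD1309362 (8.03 and 7.17).

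Per1, a core gene of the circadian clock, measured 6.87 and 7.14 in C1, 7.51 and 7.20 in C2, 9.34 and 9.33 in C3, 9.34 and 9.51 in C4, 8.34 and 8.09 in C5, and 8.40 and 8.40 in C6 (adjusted p = 0.00878). C3 and C4 were the highest animals and C1 and C2 the lowest. Prokr2, the receptor of prokineticin 2, had 7.19 and 7.02 in C1, 7.10 and 7.71 in C2, 9.86 and 10.01 in C3, 9.98 and 10.01 in C4, 7.21 and 7.50 in C5, and 8.72 and 8.19 in C6 (adjusted p = 0.00878). Pdzrn4 was likewise highest in C3 (8.46 and 8.30) and C4 (8.31 and 8.36) and lowest in C5 and C6, where it lay between 5.91 and 6.41 (adjusted p = 0.00878). These 3 genes share the order at the top, with C3 and C4 above every array of the other 4 animals.

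The other 3 called genes had orders of their own. Ctrb1, which encodes the digestive enzyme chymotrypsinogen B1, was 8.77 and 8.75 in C3, 8.04 and 7.80 in C6, 7.58 and 7.54 in C4 and 6.77 to 7.13 in the other 3 animals (adjusted p = 0.00878). RGD1309362, a gene with no assigned name, was 4.94 and 4.78 in C4 and 4.62 and 4.74 in C5, and lay between 6.82 and 8.03 in the other 4 animals (adjusted p = 0.00878). Fam111a, a gene linked to virus restriction, was 10.17 and 10.26 in C1 and 6.72 to 8.27 in the other 10 arrays. The adjusted p of Fam111a, 0.04999, was at the threshold.

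These calls depended on the setting. With the array set as a block, 4 of the 6 remained, and Pdzrn4 (adjusted p = 0.123) and Fam111a (0.0854) did not pass. Within the higher array set all 6 passed, among 49 genes, and within the lower set 0 genes passed (645 at an unadjusted p below 0.05). Without C3, or without C4, limma called 0 genes (2035 and 1708 at an unadjusted p below 0.05), without C1 it called 3 and without C2 51. Over 18 alternatives the adjusted p of each of the 6 genes reached 0.763 at most, and its lowest value lay between 0.000667 for RGD1309362 and 0.0042 for Ctrb1.

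The next genes by p, which did not pass, were Myl9, Gal, Rsl1d1 and Tnmd, each at an adjusted p of 0.0739. Myl9, the regulatory light chain of smooth muscle and stress fibre myosin, was 9.83 and 9.83 in C3 and at least 9.93 in both molars of C4, and 8.06 to 9.17 in the other 8 arrays. Tnmd was 6.81 and 6.68 in C3, 7.39 and 7.13 in C4 and 5.21 to 6.48 in the others. Its mean of 6.11 lay below the 6.42 used as a gauge of the floor. Gal, a neuropeptide gene, was 9.53 and 8.97 in C1, 8.30 and 8.46 in C4, and 6.14 to 7.85 elsewhere.

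**Figure D5:**
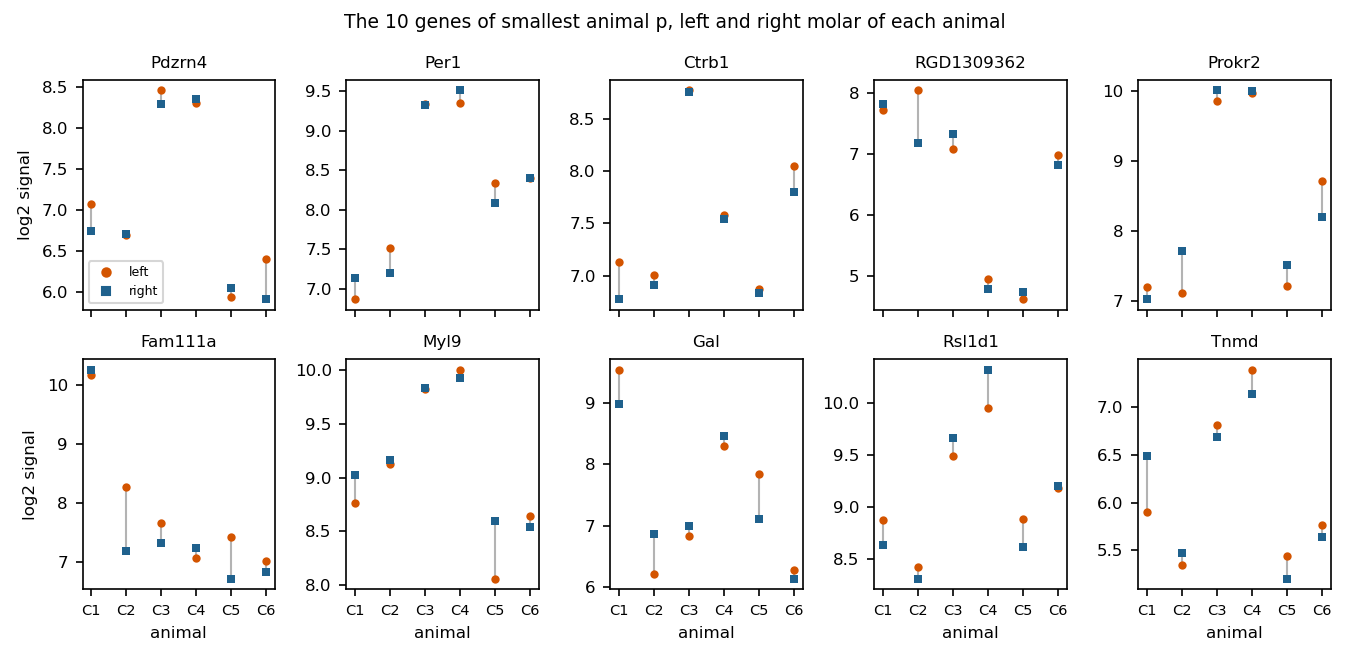
Log2 signal (vertical axes, scaled per gene) of the 10 genes with the smallest p for the animal term, in the left (circle) and right (square) molar of each control animal (horizontal axis). A grey line joins the molars of an animal. C3 and C4 are the highest animals for Pdzrn4, Per1, Prokr2, Myl9, Rsl1d1 and Tnmd, and C1 is the highest for Fam111a and Gal.

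Without C2 left and C5 left, an animal term passed in 204 genes, 1.5% of those tested, and these include the 6. Among those added were Sfrp2, a Wnt antagonist, and Tagln, an actin-binding protein of contractile cells, both at an adjusted p of 0.00503, and Igf1, insulin-like growth factor 1, at 0.0242. In that fit only the right molar stood for C2 and for C5, and the difference between molars came from C1, C3, C4 and C6. The left molars of C2 and C5 were dropped after being seen to stand apart. Counts with and without them thus rest on unlike error terms. Sfrp2 measured 12.21 and 12.07 in C3, 12.18 and 12.01 in C4, and 10.15 to 10.90 in the other arrays, apart from 9.06 in C5 left. Tagln was 10.85 and 10.78 in C3 and 10.92 and 10.74 in C4, and 9.09 to 9.70 in the others except C5 left, at 8.13. Igf1 showed the same order, with 11.37 and 11.42 in C3, 11.29 and 11.25 in C4, and 9.86 to 10.51 elsewhere except C5 left (9.38). Of the 203 such genes that were also kept over all 12 arrays, C4 had the highest animal mean in 74 (36.5%), C2 in 49 (24.1%) and C3 in 39 (19.2%), against 22.6%, 16.5% and 17.0% of all kept genes computed over the same 10 arrays. Over all 12 arrays, the highest array came from C3 or C4 in 29.6% of kept genes. By list it did so in 23 of 33 Wnt genes, 17 of 23 ligament fibroblast genes, 19 of 23 collagen processing genes and 18 of 22 osteoblast and cementoblast genes. It did so in 0 of 25 oral epithelium, 0 of 16 endothelial, 0 of 20 cell cycle, 0 of 13 B and plasma cell and 0 of 11 splicing genes. In these lists C2 left or C5 left took most of the highest places. C5 left was highest in 22 oral epithelium genes. C2 left was highest in 15 endothelial, 14 cell cycle, 13 B and plasma cell and 7 splicing genes. The same count without that pair was not made.

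The profile was also looked up in the 11 experimental arrays, which were normalized on their own and not compared in level. Of the 100 highest signals, 91 were among the 100 highest there, and 21 of the top 25. Col1a1 ranked 5th, Col1a2 9th, Fdcsp 4th, Odam 14th, Krt14 18th, Postn 29th and Col3a1 30th in those arrays. Of the 100 genes of largest SD, 70 were again among the 100 of largest SD, with SDs of 2.80 for Krt24, 2.19 for Krt76 and 2.36 for Krt10. Of the 100 genes of smallest SD, 18 recurred, and the 100 had a median SD of 0.14 in those arrays, beside 0.24 for all kept genes. The animal term, fitted in the 5 experimental animals with both molars, passed in 5 of 13624 genes (0.0367%), which were Nqo2, Car8, Ifit1, Fam111a and Lbp. Fam111a was shared with the control arrays, which is 1 of 6 control calls and 1 of 5 experimental calls, and 3 of the 5 were among the 204. In those animals Fam111a was 7.31 and 7.54 in E7 and 8.80 to 9.70 in the others (adjusted p = 0.0294). Per1 lay between 7.01 and 7.75 in all 11 experimental arrays, and its animal term there had an adjusted p of 0.373. The difference between the sets of animals in these terms was not tested.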

How the data were processed

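Affymetrix arrays were hybridised from 200 ng of RNA of each molar. The deposited table holds log2 values. To make them the authors used Partek and RMA according to the submitters' processing notes, with versions, settings and genome build not given in the sources used here. Of 36685 probe sets, 19086 were listed in the platform annotation, 18511 with 1 symbol, 575 with several and 17599 not listed. Those with 1 symbol gave 18166 genes, 291 of them with several probe sets, where the highest mean stood for the gene. The number of columns of other samples was 0.

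The 12 control arrays were quantile normalized in Python 3.11.15 with pandas 2.3.3 and numpy 2.4.6, and the 11 experimental arrays separately. The animal term was fitted with limma 3.58.1 (R 4.3.3), and Python did the rest. The 25th percentile of mean signal, 5.80, was the filter for spread and for the animal term (limma F-test over animals with side as a covariate, Benjamini-Hochberg adjustment, threshold 0.05). The steps were tested on simulated data. The labels do not say whether the molars were handled as separate samples throughout, so p-values measure the spread between these samples.

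The genes named were the 25 of highest signal, the 20 of largest and 20 of smallest SD (the smallest within the upper 25% of signals), the 10 of smallest animal p, the 4 markers, and up to 4 by signal and 2 by SD from each of 59 lists. Placeholder symbols and symbols that the RefSeq table does not hold were passed over in the first groups, 4 among the highest signals (COX3, COX1, Ubcl1 and COX2) and 2 among the smallest SDs (COX1 and COX3). Of the lists, 58 had a measured member. Edge genes, family counts and further array values were added after the values were seen. The members and lists were chosen with earlier results of these data known. Alternatives covered normalization, probe sets, filter, measure of spread, covariate, array set and arrays left out. Promoters came from RefSeq (GRCr8).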

Additional observations from a re-analysis of the deposited data

Results flagged for a closer look

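On the means of both molars, 7 of 132 items tested had 1 animal far from the other 5. For independent items not picked from the data, chance gives about 1 in 20. These items overlap, as Odam is also in the junctional epithelium list, and the genes among them were picked from these same arrays. The number therefore cannot be judged against that rate. Animal C2 was low for the junctional epithelium list, at 8.79 against 9.28 to 9.41, for Fdcsp, at 13.23 against 13.76 to 13.89, for Odam, at 12.26 against 13.26 to 13.36, and for Or8h7b, at 9.99 against 11.68 to 12.69. In each of the 3 genes the left molar of C2 was the low array, and the right molar lay within the range of the others. Animal C5 was low for the osteoclast list, at 8.35 against 8.82 to 9.02, and high for Cdc42, at 11.91 against 11.77 to 11.79. Animal C1 was high for Fam111a, at 10.21 against 6.92 to 7.73, in both molars. The causes were not tested.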

How the results depend on the processing

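The 100 highest signals shared 95 to 100 genes with the main list in every alternative, and 96 to 98 when 1 animal was left out. All 4 marker genes are in that list. The count of gene lists above the all-gene median was 44 throughout. Of the 100 genes of largest SD, 48 were shared with the median absolute deviation and 56 within the higher array set, and 68 to 100 in the others (70 to 96 without 1 animal). The 100 genes of smallest SD were the least stable, with 11 shared for values as deposited, 18 for arrays centred on their medians, 44 without C2 left and C5 left, 30 with the median absolute deviation, 40 with the SD over animal means, 23 within the higher and 25 within the lower array set, and 49 to 79 without 1 animal. The animal term called 6 genes in the main setting, 5897 in values as deposited, where the array sets differ in level, 10 with arrays centred on their medians, 12 with no filter, 29 without side, 204 without C2 left and C5 left, 49 within the higher and 0 within the lower set (645 at an unadjusted p under 0.05), and 0 with the same F-test without moderation (2095). Leaving out 1 animal gave 0 to 51 calls. Without C2 left and C5 left, and the array sets and experimental animals for the animal term, were chosen after seeing the data. Counting each named gene once in each setting, its mean moved by less than its SD in 3652 cases and by more in 11. Counting each list likewise, its median moved by less than the SD in 654 cases and by more in 42, and 28 of the 42 came from taking the mean over members, which moved 28 of 58 lists. The cause of these changes was not tested. The number of arrays limits precision, and signals near the floor cannot be ordered. No paired analysis was possible because no groups were compared and the animal is itself the term tested.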
